A study of Mus musculus with 6 samples.

Results

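The tumour necrosis factor (TNF) ligand and receptor superfamilies were examined in MC3T3-E1 cells, a mouse line of calvarial pre-osteoblasts that can be driven to lay down mineral in culture. Members were taken by symbol, as every measured gene whose name begins with Tnfsf or Tnfrsf, except Tnfsf11, Tnfrsf11a and Tnfrsf11b, together with Tnf, Lta, Ltb, Ltbr, Fas, Fasl, Cd40, Cd40lg, Cd27, Cd70, Eda, Edar, Eda2r and Ngfr. This gave 43 of 17298 named genes, of which 17 encode ligands, 25 encode receptors and 1, Tnfsfm13, is the read-through transcript of the neighbouring ligand genes Tnfsf12 and Tnfsf13. Of the receptor genes, 7 encode an intracellular death domain, 15 do not, and 3 (Tnfrsf22, Tnfrsf23 and Tnfrsf26) belong to a cluster known in the mouse for decoy receptors of the ligand TRAIL. RNA of 6 cultures was hybridized to single-colour arrays. The undifferentiated group held 3 cultures and the differentiated group held 3 cultures grown for 15 days in ascorbic acid (50 µg/mL) plus glycerol-2-phosphate (10 mM). All 6 cultures had 100 nM 1,25(OH)2D3, the active form of vitamin D, for 24 h before harvest, and were given as biological triplicates of passage 5 to 12. Arrays of cells without the hormone were not analysed here, so no value below is a response to it. In cultures measured whole, fewer cells of a type and less RNA per cell cannot be told apart.

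Ligands of the TNF superfamily are mostly trimeric membrane proteins, some of which are shed, and each binds one or a few receptors with cysteine-rich extracellular repeats. Receptors with a death domain recruit adaptors such as FADD and TRADD and can start caspase cleavage, whereas most others bind TRAF proteins and activate NF-kappaB. Decoy receptors bind ligand without signalling. In bone the family is best known for RANKL and its decoy receptor, left out of the members, and for the inhibition of osteoblast differentiation by TNF itself.

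Values are log2 expression intensities, and differences are differentiated minus undifferentiated cells, tested with limma. A gene was called where its p, after Benjamini-Hochberg adjustment over the 17298 named genes, was under 0.05. The random-probe control feature, which measures the level without a matching transcript, read 6.59 to 6.77 in undifferentiated and 6.71 to 6.81 in differentiated arrays. Between arrays, r across features was 0.979 to 0.994 within undifferentiated and 0.992 to 0.996 within differentiated cells, with undifferentiated replicate 3 apart from replicates 1 and 2. Its array number starts like those of the differentiated arrays. A fit with a term for this start therefore sets the differentiated arrays against undifferentiated replicate 3 alone. The image names carried a different date-like number for each group, so image batch and group cannot be told apart. Of 12 osteoblast genes 5 rose (41.7%, against 8.58% of all genes) and 0 fell by limma (1 was lower at an unadjusted p under 0.05). Col1a1, the main collagen of bone, read 15.76 to 15.95 on all arrays, and Alpl, the mineralization phosphatase, rose 12.96-fold (limma adjusted p = 6.79e-08). Runx2 differed by 0.09 (adjusted p = 0.658) and Spp1 by -0.32 (0.132). The bone matrix gene Ibsp lay near the control feature and Phex lay at or below it on all arrays. Of the lymphocyte and macrophage markers, only Ms4a1 lay at or below the control on all arrays. Cd4 read 10.68 to 11.15, Itgam 8.70 to 9.83 and Ptprc, the pan-leukocyte gene, 8.54 to 8.80. Among marker lists of other cells, 1 of 7 macrophage genes rose and 1 fell, and 1 of 6 T cell and 1 of 6 B cell genes rose. So did 1 of 5 dendritic and mast cell, 2 of 6 endothelial and 2 of 6 adipocyte genes. Of 5 chondrocyte genes 2 rose and 1 fell, and 0 of 4 muscle genes were called by limma (1 at an unadjusted p under 0.05). Of all named genes 8.58% rose and 10.9% fell, and the lists of other cells are too short to be told from those shares.

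Tnfrsf19, which encodes the receptor TROY, and Tnfrsf21, which encodes death receptor 6, rose more than any other member, and Edar and the ligand gene Tnfsf13b rose less. Fas, Eda2r, Tnfrsf10b and Tnfrsf1b fell. In all, 4 of the 43 members rose (9.30%, against 8.58% of all named genes) and 4 fell (9.30%, against 10.9%). Of the 43, 18.6% were thus called, near the 19.5% of all genes. By role, 1 of 17 ligands rose and 0 fell, 2 of 7 death-domain receptors rose and 2 fell, and 1 of 15 receptors without a death domain rose and 2 fell, with median differences of 0.28, 0.13 and 0.22. At 2-fold or more, 4 members changed, Tnfrsf19, Tnfrsf21, Fas and Eda2r, while 3.57% of all genes did. The groups did not overlap for 16 members (37.2%, against 40.1% of all genes). The remaining 35 members were not called.

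**Figure D1:**
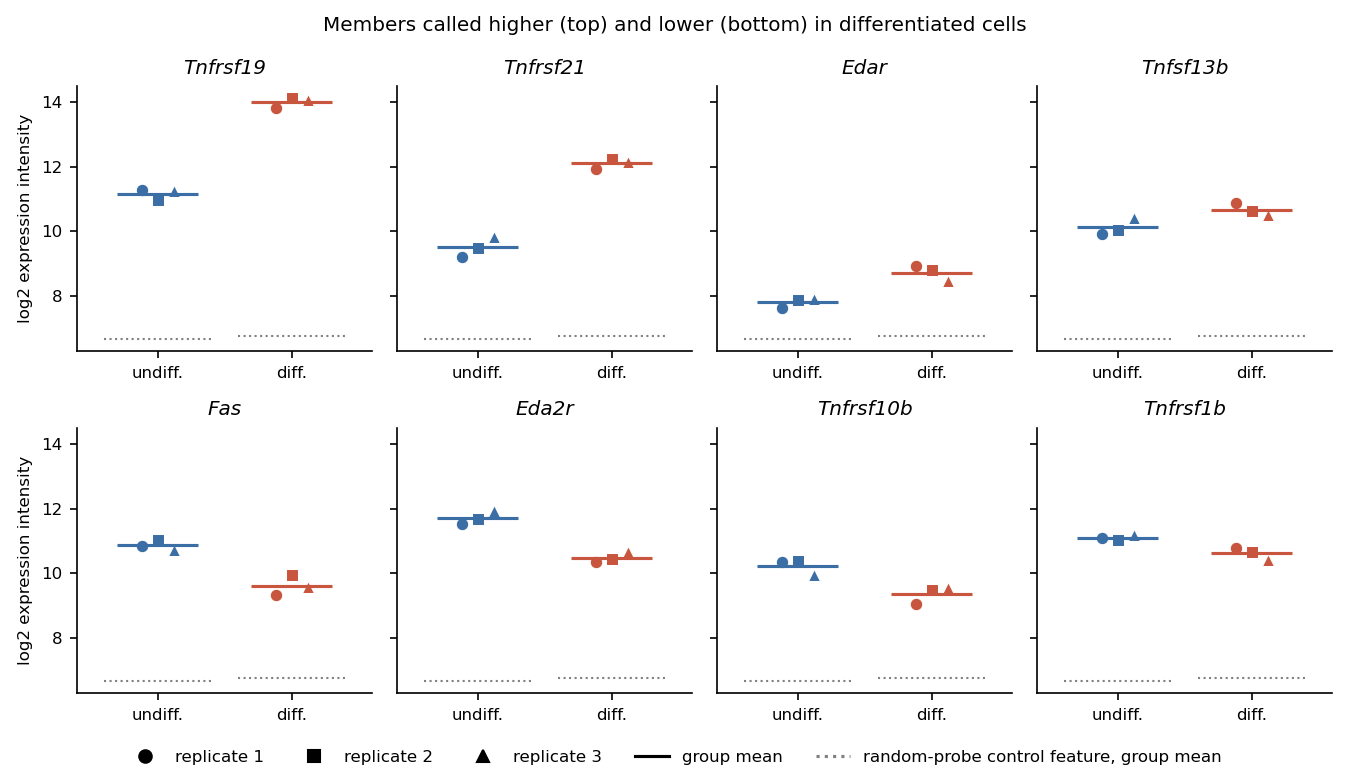
Log2 expression intensity (vertical axis) of the 8 called members on each array, undifferentiated in blue and differentiated in red, with marker shape giving the replicate, solid lines the group means and dotted lines the control feature. Tnfrsf19 and Tnfrsf21 are separated by over 2 log2 units, whereas the groups of Tnfsf13b and Tnfrsf1b come within 0.25 of each other.

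Tnfrsf19 encodes TROY, a receptor without a death domain that is related to Edar in sequence and is known from hair follicles, embryonic skin and the nervous system. Its level was 11.28, 10.96 and 11.23 in undifferentiated replicates 1, 2 and 3, and 13.82, 14.12 and 14.04 in differentiated replicates 1, 2 and 3. All differentiated arrays lay far above all undifferentiated ones. The means were 11.15 ± 0.17 and 13.995 ± 0.15 (SD, n = 3 each), a 7.17-fold rise with a log2 difference of 2.84 (SE 0.14, limma adjusted p = 7.20e-07). This was rank 22 of the 17298 genes by upward difference. Tnfrsf21 encodes death receptor 6, a death-domain receptor known for its part in T-helper cell and neuronal biology. Its level was 9.21, 9.48 and 9.82 in undifferentiated cells and 11.92, 12.25 and 12.13 in differentiated cells. The groups again did not overlap, and the 6.04-fold rise (log2 difference 2.59, SE 0.17, limma adjusted p = 4.46e-06) had rank 28. Both rises passed under all 18 alternatives, with a lowest difference of 2.74 for Tnfrsf19 and 2.28 for Tnfrsf21.

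The sequences before the annotated starts are shown for the 2 members that rose most and the 2 that fell most. They come from RefSeq (GRCm38.p6), which held start windows for 34 of the 43 members, 38 windows in all. Each runs 5′ to 3′ and ends where the annotated gene begins. Capitals mark matches, on either strand, to a GC box (GGGCGG), an AP-1 site (TGANTCA), an NF-kappaB site (GGG and CC with any 5 bases between them), a nuclear receptor half-site (AGNTCA) or the p53 half-site.
Tnfrsf19, chr14:61046856-61047105, - strand: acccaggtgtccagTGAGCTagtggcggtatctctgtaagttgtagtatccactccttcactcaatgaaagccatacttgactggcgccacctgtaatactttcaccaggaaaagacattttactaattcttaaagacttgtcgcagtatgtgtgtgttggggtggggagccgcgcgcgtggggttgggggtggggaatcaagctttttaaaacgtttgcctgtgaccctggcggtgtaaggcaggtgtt
Tnfrsf21, chr17:43016305-43016554, + strand: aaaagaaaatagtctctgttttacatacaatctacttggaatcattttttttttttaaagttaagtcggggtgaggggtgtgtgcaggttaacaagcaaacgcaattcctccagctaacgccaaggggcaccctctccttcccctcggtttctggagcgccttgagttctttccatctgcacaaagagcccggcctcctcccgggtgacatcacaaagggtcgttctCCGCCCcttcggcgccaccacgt
Fas, chr19:34290409-34290646, + strand: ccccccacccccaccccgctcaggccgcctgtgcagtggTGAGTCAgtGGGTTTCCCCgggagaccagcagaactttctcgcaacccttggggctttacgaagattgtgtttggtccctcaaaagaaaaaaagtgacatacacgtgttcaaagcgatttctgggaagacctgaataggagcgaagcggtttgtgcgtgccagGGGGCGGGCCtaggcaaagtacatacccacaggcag
Eda2r, chrX:97377235-97377459, - strand: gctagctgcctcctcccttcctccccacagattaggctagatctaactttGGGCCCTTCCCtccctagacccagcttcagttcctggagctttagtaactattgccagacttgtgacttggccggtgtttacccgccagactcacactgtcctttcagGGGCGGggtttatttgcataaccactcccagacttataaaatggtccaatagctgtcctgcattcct
Positions count back from the start in the table. Tnfrsf19 held 1 half-site at -236 and none of the other motifs, and its second annotated start, inside the gene, is not printed. Tnfrsf21 held 1 GC box at -23. Fas held an AP-1 site at -211 that is followed by an NF-kappaB match at -202, and a GC box at -47 inside a second NF-kappaB match. Eda2r held a GC box at -92 and a pair of overlapping NF-kappaB matches from -200. Over all 32851 windows, before any cut at the annotated gene, the 250 bases held a GC box in 32.7%, an AP-1 site in 6.75%, an NF-kappaB site in 45.8%, a nuclear receptor half-site in 41.3% and a p53 half-site in 7.13%. In the 38 member windows the shares were 47.4%, 15.8%, 63.2%, 39.5% and 7.89%. NF-kappaB and half-site letters are thus common in any window, and a match shows letters only.

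The ectodysplasin branch of the family, which directs the growth of hair, teeth and glands, moved in opposite directions in its receptors. Edar, the death-domain receptor for the ectodysplasin A1 form, read 7.62, 7.86 and 7.91 in undifferentiated cells and 8.92, 8.79 and 8.45 in differentiated cells. It rose 1.90-fold (log2 difference 0.92, SE 0.15, limma adjusted p = 0.00269), with no overlap between the groups. Eda2r, the receptor for the A2 form, read 11.52, 11.66 and 11.93 in undifferentiated cells and 10.33, 10.44 and 10.65 in differentiated cells. It fell 2.35-fold (log2 difference -1.23, SE 0.15, limma adjusted p = 0.000379), and all differentiated arrays lay below all undifferentiated arrays. The ligand gene Eda read 8.56, 8.73 and 8.96, then 9.12, 9.09 and 8.90, so the groups overlapped. Its difference of 0.28 (95% interval -0.04 to 0.60) did not pass (limma adjusted p = 0.180), and its feature is not assigned to a splice form here. Edaradd, the adaptor of Edar, differed by 0.05 (adjusted p = 0.807).

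Receptors that start cell death fell on the Fas and TRAIL branches. Fas, the death receptor engaged by cytotoxic lymphocytes, read 10.84, 11.02 and 10.71 in undifferentiated cells and 9.33, 9.94 and 9.57 in differentiated cells. The groups did not overlap, and the fall was 2.37-fold (log2 difference -1.25, SE 0.17, limma adjusted p = 0.000776). Its ligand gene Fasl read 7.87, 7.81 and 7.78, then 8.0001, 7.73 and 7.87, with overlapping groups and a difference of 0.04 (95% interval -0.24 to 0.33, adjusted p = 0.825). The sign of that difference turned with each rescaling, to -0.053 (quantile), -0.0071 (equal array medians) and -0.096 (cyclic loess). Tnfrsf10b, the mouse death receptor for TRAIL, read 10.35, 10.37 and 9.93 in undifferentiated cells and 9.06, 9.49 and 9.54 in differentiated cells. It fell 1.80-fold (log2 difference -0.85, SE 0.17, limma adjusted p = 0.00764) with no overlap, and passed under all 18 alternatives at an adjusted p of up to 0.0487. Tnfsf10, the TRAIL gene, read 10.20, 10.15 and 10.52, then 9.47, 10.24 and 9.80. Differentiated replicate 2 lay within the undifferentiated range, and the difference of -0.45 did not pass (limma adjusted p = 0.119). It passed in 2 of 18 alternatives. These were without differentiated replicate 2 (-0.65, limma adjusted p = 0.0493) and with a term for the start of the array number. The latter difference, -0.68, is against undifferentiated replicate 3 alone. In the cluster of decoy receptors 0 of 3 genes were called by limma, and 0 at an unadjusted p under 0.05. Tnfrsf22 differed by -0.05 (95% interval -0.32 to 0.23), Tnfrsf23 by 0.24 (-0.07 to 0.55) and Tnfrsf26 by -0.18 (-0.50 to 0.15). Fas, Tnfrsf10b and Eda2r passed under all 18 alternatives, as did Edar.

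The receptors of TNF itself differed less. Tnfrsf1a, the widely expressed death-domain receptor, read 14.37, 14.26 and 14.19 in undifferentiated cells and 14.01, 14.02 and 14.02 in differentiated cells. The differentiated arrays all lay lower, but the difference of -0.26 (95% interval -0.52 to 0.01) did not pass (limma adjusted p = 0.152). Tnfrsf1b, the second TNF receptor, which lacks a death domain, read 11.08, 11.02 and 11.19, then 10.77, 10.65 and 10.41. It fell 1.40-fold (log2 difference -0.48, SE 0.14, limma adjusted p = 0.0333) with no overlap. This call was lost in 7 of 18 alternatives, with adjusted p = 0.0779 after quantile normalization, 0.0601 after cyclic loess, 0.0607 without undifferentiated replicate 1, 0.0846 without undifferentiated replicate 2, and 0.0575, 0.0850 and 0.154 without differentiated replicates 1, 2 and 3. The ligand gene Tnf read 7.80, 7.77 and 8.18, then 8.35, 8.40 and 8.31, and its difference of 0.43 did not pass (limma adjusted p = 0.0562). Lta, which encodes lymphotoxin alpha, a further ligand of both receptors, read 9.02, 8.93 and 9.61, then 9.73, 9.55 and 9.88, a difference of 0.53 (limma adjusted p = 0.0672).

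Of the 17 ligand genes only Tnfsf13b was called by limma, while 6 were higher and 1, Tnfsf10, was lower at an unadjusted p under 0.05. The number called higher was 7 without undifferentiated replicate 3 (41.2%, against 24.8% of all genes) and 9 with array weights. Tnfsf13b, which encodes the B-cell survival factor BAFF, read 9.93, 10.03 and 10.40 in undifferentiated cells and 10.87, 10.63 and 10.49 in differentiated cells. The groups lay close together without overlap, and the rise was 1.46-fold (log2 difference 0.55, SE 0.16, limma adjusted p = 0.0380). The call was lost in 8 of 18 alternatives. These were equal array medians (limma adjusted p = 0.0516), a block for the replicate number (0.0526) and a term for the start of the array number. That term gave a difference of 0.27, against undifferentiated replicate 3 alone. The others left out undifferentiated replicate 1 (0.105), undifferentiated replicate 2 (0.137) or differentiated replicate 1, 2 or 3 (0.162, 0.0927 and 0.0666). None of the BAFF receptor genes was called. Tnfrsf13c, the BAFF receptor proper, read 7.58, 7.68 and 7.52, then 7.61, 7.74 and 7.74, a difference of 0.11 (limma adjusted p = 0.555). Tnfrsf13b, which encodes TACI, read 7.23, 7.52 and 8.09, then 7.85, 7.86 and 7.94, a difference of 0.27 (limma adjusted p = 0.342). Tnfrsf17, which encodes BCMA, read 8.62, 8.54 and 8.77, then 9.12, 8.997 and 8.99, a difference of 0.39 (limma adjusted p = 0.0538). Only in Tnfrsf17, among these 3, did the groups not overlap. Tnfsf12, which encodes TWEAK, a ligand that acts on connective tissue cells, read 13.83, 13.73 and 13.35, then 13.58, 13.81 and 13.70. Its groups overlapped, and its difference of 0.06 (95% interval -0.28 to 0.40, limma adjusted p = 0.796) had either sign over the alternatives. Its neighbour Tnfsf13 differed by -0.07 (adjusted p = 0.784) and the read-through gene Tnfsfm13 by 0.14 (0.422), and these 3 share sequence, so their values are uncertain as those of single genes. The ligands at the dim end were Tnfsf18, at or below the control on all undifferentiated arrays, and Tnfsf8, at or below it on all differentiated arrays, and no fold is given for either.

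**Figure D2:**
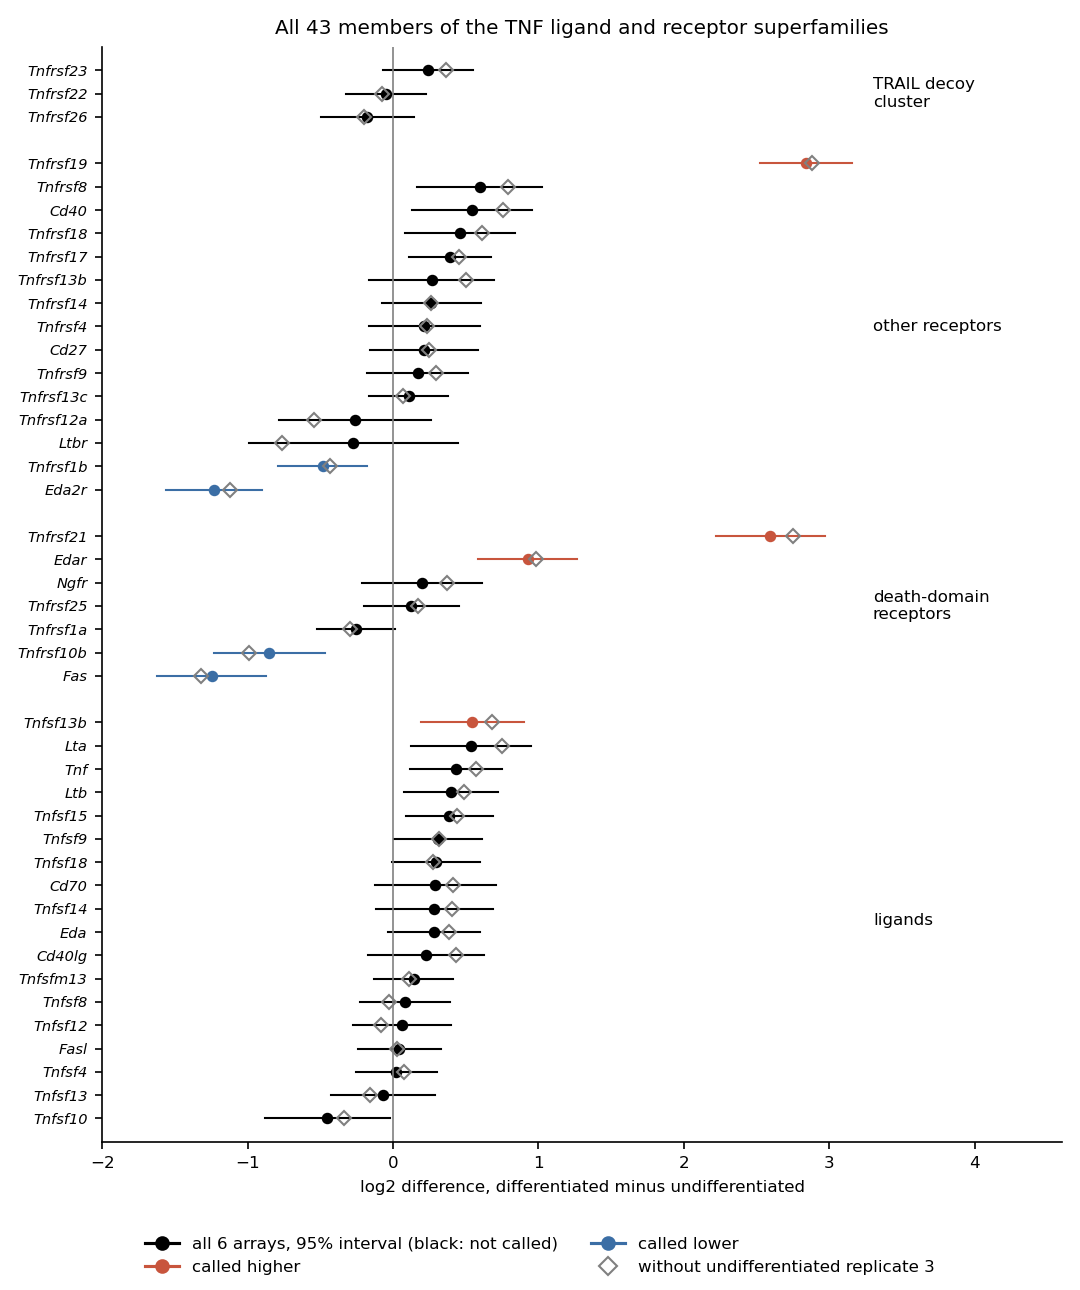
Log2 difference (horizontal axis, differentiated minus undifferentiated) of all 43 members by role, with circles for all 6 arrays, bars for the 95% interval, red and blue for called members and grey diamonds for the value without undifferentiated replicate 3. Most ligands lie a little right of 0, and Ltbr shows the widest interval.

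Small positive differences were most frequent among the dim members. Differences were positive for 32 of 43 members, with a median of 0.22, against 59.4% of all genes and a median of 0.08. Of the 14 members with a mean of 8 to 10, 13 were positive with a median of 0.30, and of all 5809 genes in that range 71.0% were positive with a median of 0.22. Of the 11 members under 8, 10 were positive with a median of 0.17, and of the 3599 genes there 74.6% were, with a median of 0.11. Of the 14 members at 10 to 12, 6 were positive with a median of -0.06, against 46.1% and -0.04 for all genes there. Of the 4 members over 12, 3 were positive with a median of 0.26, against 40.0% and -0.08 for all genes there. These 4 were Tnfrsf19, Tnfrsf18, Tnfsf12 and Tnfrsf1a, of which only Tnfrsf19 was called, too few to compare with their range. The control feature itself was 0.11 higher in differentiated arrays (6.77 ± 0.05 against 6.65 ± 0.10, SD, n = 3 each). Quantile normalization gave the members a median of 0.17, and cyclic loess one of 0.12 (all genes 0.07 and 0.04). Markers of lymphocytes, many of them dim, moved the same way, with medians of 0.38 for 6 T cell genes and 0.41 for 6 B cell genes, of which 1 each was called higher (4 each without undifferentiated replicate 3). The log2 of their summed intensity lay, for the T cell genes, at 11.91 to 12.36 in undifferentiated and 12.35 to 12.38 in differentiated arrays, and for the B cell genes at 10.66 to 11.28 and 11.28 to 11.51. The shift was not particular to lymphocyte genes. Medians were 0.52 for adipocyte, 0.29 for dendritic and mast cell and 0.25 for endothelial genes. For muscle, macrophage and chondrocyte genes they were 0.21, 0.18 and 0.05. The part of any of these cell types in the members' values was not tested.

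**Figure D3:**
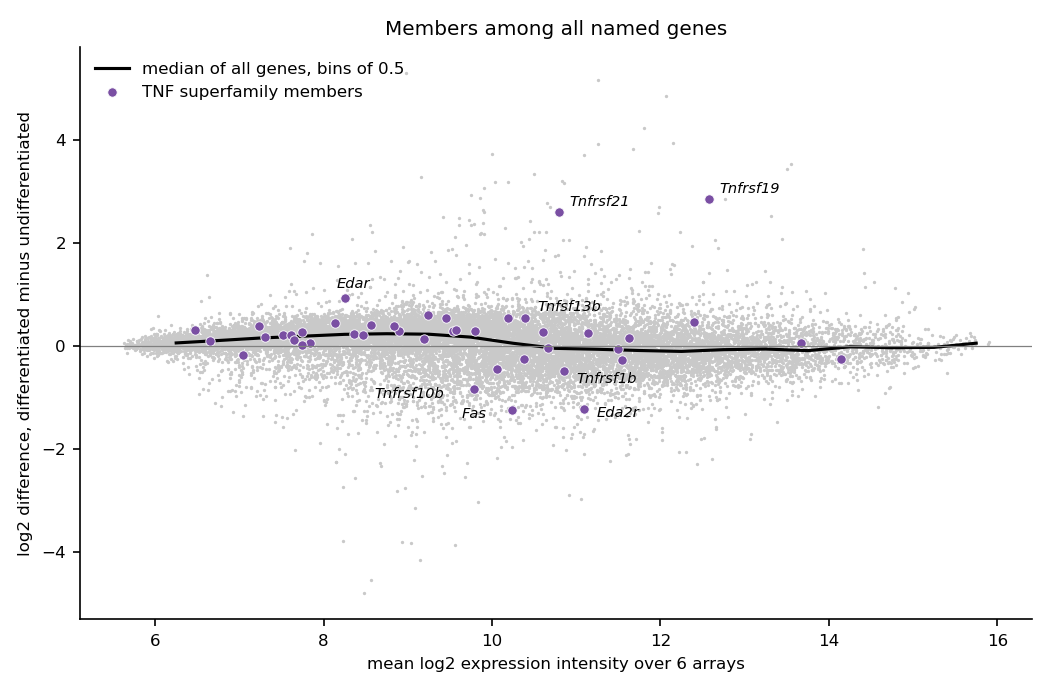
Log2 difference (vertical axis) against mean log2 intensity over 6 arrays (horizontal axis), with all 17298 named genes in grey, their median in bins of 0.5 as a black line and the 43 members in purple. The line is above 0 between about 7 and 10 and slightly below 0 beyond 11, and most dim members lie near it, while Tnfrsf19 and Tnfrsf21 stand far above.

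Several members depended on undifferentiated replicate 3. Without it 16 members rose (37.2%, against 24.8% of all genes) and 6 fell (13.95%, against 20.2%), and in either direction 45% of all genes were called. Ltbr, the lymphotoxin beta receptor gene, read 12.26, 12.07 and 10.70, then 11.46, 11.35 and 11.40. Replicate 3 was thus below the differentiated arrays and its fellows above them. The difference of -0.27 (95% interval -0.99 to 0.45, limma adjusted p = 0.567) became -0.76 without replicate 3 (adjusted p = 0.000239) and 0.02 without replicate 1 (0.976). When the fit held the start of the array number, the difference was 0.71, against undifferentiated replicate 3 alone. Tnfrsf12a, which encodes the TWEAK receptor Fn14, read 10.96, 10.62 and 9.95, then 10.20, 10.01 and 10.54. Its difference of -0.26 (limma adjusted p = 0.441) became -0.54 without replicate 3 (adjusted p = 0.0112). With the start of the array number in the fit it was 0.30, again against replicate 3 alone. Cd40, a receptor known on antigen-presenting cells, had 4 features. The brightest read 9.59, 9.83 and 10.35, then 10.57, 10.33 and 10.50, a difference of 0.54 (adjusted p = 0.0637 in limma over genes). Over all 42586 features its other 3 transcripts gave 0.50, 0.53 and 0.78, with limma adjusted p = 0.0465, 0.0256 and 0.00376. Without replicate 3 the brightest gave 0.76 (adjusted p = 0.000398). Tnf and Lta also passed without that array, at 0.57 (adjusted p = 0.00176) and 0.75 (0.000421). Cd40, Ltbr and Tnfrsf12a were chosen after their values were seen.

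**Figure D4:**
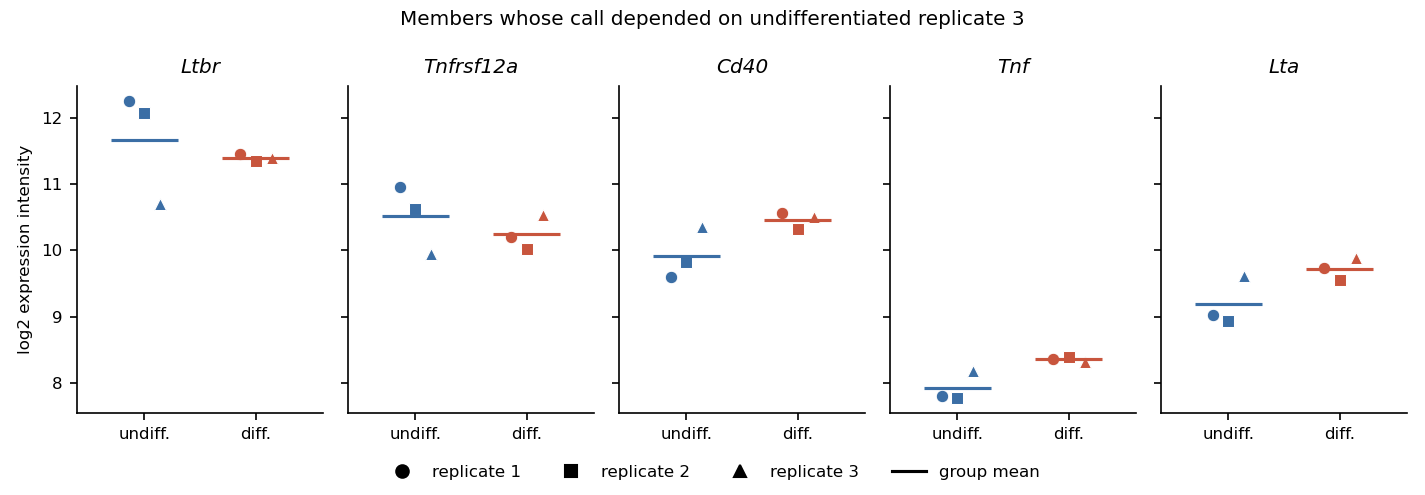
Log2 expression intensity (vertical axis) on each array for 5 members whose call changed when undifferentiated replicate 3 (blue triangle) was left out, with group means as lines. In Ltbr the triangle lies at 10.70, below all 3 differentiated arrays, while replicates 1 and 2 lie above them.

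Several members lie next to each other in the genome, and in no such run was more than 1 member called. Tnfrsf1b fell while its direct neighbour Tnfrsf8 differed by 0.60 in the other direction without passing (limma adjusted p = 0.0549). In the run Ltb, Tnf and Lta the differences were 0.40, 0.43 and 0.53, and none was called. In the run Tnfrsf26, Tnfrsf22 and Tnfrsf23 they were -0.18, -0.05 and 0.24. Tnfrsf18 and Tnfrsf4, which encode T-cell costimulatory receptors, differed by 0.46 and 0.22.

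Genes that carry or answer the signal were taken from 5 fixed lists, of which 69 of 70 genes were measured. Across them 7 rose (10.1%, against 8.58% of all genes) and 16 fell (23.2%, against 10.9%), with a median difference of -0.0038. The shares of all genes given for these lists are not matched for level, and falls depended on level. Of all genes with a mean of 10 to 12, 822 of 4925 fell, against 570 of 5809 at 8 to 10 and 376 of 2965 over 12. Without undifferentiated replicate 3 these were 1548, 987 and 752. The decreases included the kinase genes Map3k7 and Chuk and other regulators upstream of NF-kappaB. The kinase genes Ikbkb, Map3k14, Ripk1 and Ripk3 were not called. Of 13 adaptors and TRAF genes 0 rose by limma (1 at an unadjusted p under 0.05) and 2 fell, with a median of 0.05. Without undifferentiated replicate 3, 2 rose and 3 fell, with a median of 0.0013. Traf6, an adaptor of CD40 and RANK, read 10.04, 10.03 and 9.90, then 8.84, 9.44 and 8.98. Its groups were well apart, and it fell 1.87-fold (limma adjusted p = 0.00418). Traf5 fell 1.47-fold (adjusted p = 0.0292), a call lost in 6 of 18 alternatives, while Tradd and Fadd differed by 0.16 (0.459) and 0.04 (0.848). Of 8 measured genes of the death pathway 0 rose by limma (also 0 at an unadjusted p under 0.05) and 1 fell, with a median of -0.21. Without undifferentiated replicate 3, 3 fell (37.5%, against 20.2% of all genes). Casp6, an executioner caspase gene, read 11.03, 10.92 and 10.13, then 9.30, 9.51 and 9.76, and fell 2.25-fold (limma adjusted p = 0.00582). Undifferentiated replicate 3 lay 0.85 below the mean of replicates 1 and 2 for Casp6. Casp8, the initiator caspase of death receptors, differed by 0.12 (adjusted p = 0.592), and Cflar, its inhibitor, by -0.24 (0.174).

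In the NF-kappaB module 1 of 19 genes rose and 6 fell (31.6%, against 10.9% of all genes), with a median of -0.22 (-0.42 without undifferentiated replicate 3). Bcl3, a nuclear partner of NF-kappaB, fell 1.85-fold (limma adjusted p = 0.0257). Undifferentiated replicate 3 lay 0.92 below the mean of replicates 1 and 2 for Bcl3, and the call was lost in 6 of 18 alternatives. Cyld, a deubiquitinase that restrains the pathway, read 11.56, 11.78 and 11.44, then 10.60, 10.88 and 10.77, and fell 1.79-fold (adjusted p = 0.00272). Map3k7, the TAK1 kinase gene, read 12.99, 12.89 and 12.73, then 12.14, 12.02 and 12.23, and fell 1.67-fold (adjusted p = 0.00355). Both thus lay lower on all differentiated arrays, and both passed under all 18 alternatives. Ikbkg, the scaffold of the IkappaB kinase, fell 1.64-fold (adjusted p = 0.00987), with the call lost in 2 of 18. The members that fell include activators and an inhibitor of the pathway. The number that fell was 11 without undifferentiated replicate 3 (57.9%, against 20.2% of all genes) and between 3 and 11 over the 6 arrays left out in turn.

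Genes known to answer TNF or NF-kappaB went both ways. Of 23, 4 rose (17.4%, against 8.58% of all genes) and 5 fell (21.7%, against 10.9%), with a median of 0.16. Without undifferentiated replicate 3, 7 rose (30.4%, against 24.8%) and 5 fell. Ptgs2, the inducible cyclooxygenase gene, read 9.20, 9.11 and 8.59, then 7.39, 7.15 and 7.54, and fell 3.04-fold (limma adjusted p = 0.000228). Cxcl5, a neutrophil chemokine gene, fell by 1.48 on the log2 scale (limma adjusted p = 0.000302), and since it was above the control on 1 of 3 differentiated arrays no fold is given. Tnfaip6, which encodes a hyaluronan-binding protein induced by TNF, read 10.14, 9.70 and 10.06, then 11.02, 11.15 and 11.36, and rose 2.31-fold (adjusted p = 0.000573). Icam1, a leukocyte adhesion gene, rose 2.12-fold (adjusted p = 0.000321). These 4 passed under all 18 alternatives. Of 6 genes of ligand and receptor shedding 2 rose and 2 fell (33.3% each, against 8.58% and 10.9% of all genes), with a median of 0.32 that was 0.07 without undifferentiated replicate 3. The sheddase gene Adam17, whose product releases TNF and its receptors, read 12.03, 11.88 and 11.87, then 11.49, 11.53 and 11.40, and fell 1.37-fold (limma adjusted p = 0.0283). Rhbdf2, which encodes the iRhom that escorts ADAM17 to the cell surface, read 9.61, 9.78 and 9.97, then 10.32, 10.27 and 10.54, and rose 1.502-fold (limma adjusted p = 0.0176). Timp3, an inhibitor of ADAM17, rose 1.37-fold (adjusted p = 0.0297), and Adam10 fell 1.47-fold (0.0433). The calls of Adam17, Rhbdf2, Timp3 and Adam10 were lost in 8, 5, 6 and 7 of 18 alternatives.

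**Figure D5:**
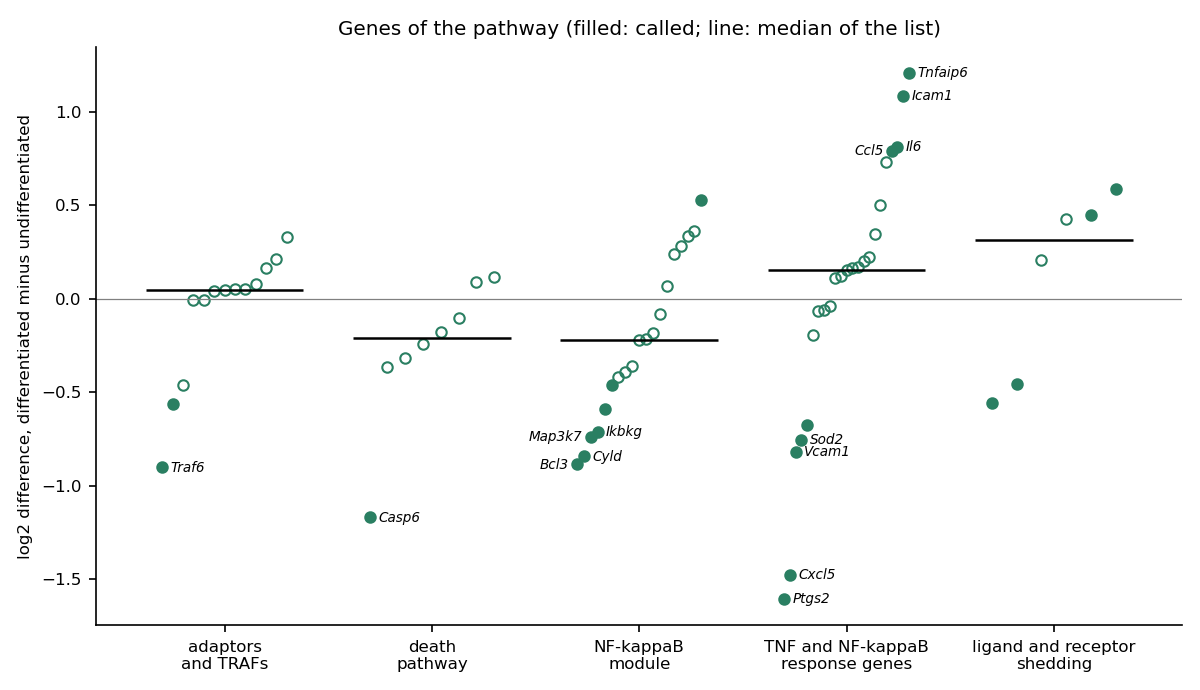
Log2 difference (vertical axis) of each measured gene of the 5 lists, with filled circles for called genes and a line at each list's median. The NF-kappaB module has 6 filled circles below 0 and 1 above, and the response genes lie on both sides.

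Of the 3 genes of the RANKL axis, which are not among the members, 1 was called. Tnfrsf11a, the RANK gene, read 7.91, 8.10 and 8.30, then 8.93, 8.45 and 8.69, and rose 1.503-fold (limma adjusted p = 0.0283, lost in 6 of 18 alternatives). Tnfsf11, the RANKL gene, differed by -0.09 (limma adjusted p = 0.643), and Tnfrsf11b, which encodes the decoy receptor osteoprotegerin, by 0.27 (0.171).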

How the data were processed

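RNA of 6 MC3T3-E1 cultures was hybridized, 1 array each, to single-colour (Cy3) arrays by the array maker's protocols, per the labels' protocols. For every feature the authors deposited an intensity on the linear scale, and the submitters' processing notes name RMA. Which arrays RMA handled together, and the genome build, was not given in the sources used here. Each array held 42586 features, of which 42566 had 9 probes, and the tests left out 1 control feature, built from 6131 random probes. The deposited series-wide value table had identical intensity values (largest difference 0). Log2 was taken with no further normalization.

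RefSeq transcript identifiers named 17849 features (GRCm38.p6, names only), giving 17298 genes. For 467 genes with several features the brightest was used. Differences were fitted with limma 3.58.1 (R 4.3.3), 2-sided, which was first tested on simulated data. The number of arrays limits the precision. The p-values weigh each difference against the spread within groups, in which culture and array cannot be told apart. Alternatives were 3 scalings, 2 filters, a replicate block, the array number start, array weights, a robust trend, the mean of features, all features, the value table and each array left out. Members with a call, Tnfrsf1a, Fas, Tnfsf12 and partners of called members were named with values on every array, and up to 4 called genes of each pathway list. The members and lists were chosen with earlier results of these data known.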

Additional observations from a re-analysis of the deposited data

How the results depend on the processing

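Tnfrsf19, Tnfrsf21, Edar, Fas, Eda2r and Tnfrsf10b kept their direction and their call under all 18 alternatives. The number of named genes called, 3367, was 8432 with array weights and 1354 to 7781 with each array left out in turn. The 4 members called higher became 18 with array weights and 3 to 16 with an array left out, and the 4 called lower became 3 to 6. The pathway genes called higher, 7, became 15 with array weights and 4 to 13 with an array left out, and those called lower, 16, became 25 and 8 to 24. In each count the highest value on leaving out an array came without undifferentiated replicate 3. The cause was not tested. The array weights were lowest for undifferentiated replicate 3 (0.237). Among members that were not called, Fasl turned to -0.053 with quantile normalization, -0.0071 with equal array medians and -0.096 with cyclic loess. Tnfsf12 turned to -0.001002 with array weights. With a term for the start of the array number, and so against undifferentiated replicate 3 alone, Tnfrsf13b turned to -0.21, Ltbr to 0.71 and Tnfrsf12a to 0.30. Tnfrsf13c turned to -0.022 with cyclic loess. With an array left out, Fasl ranged from -0.022 to 0.12, Tnfsf12 from -0.081 to 0.16 and Ltbr from -0.76 to 0.019. The replicate numbers were not taken to pair the cultures, since the correlations of same-numbered deviations were low, at 0.02, 0.13 and 0.07. Undifferentiated replicates 2 and 3 correlated best with the differentiated replicate of their own number, and replicate 1 with differentiated replicate 2. Pairing is thus not excluded. With the replicate number as a block 3452 genes were called, with 4 members higher and 4 lower, Tnfsf13b at an adjusted p of 0.0526 and Lta at 0.0320. Genes near the control feature have little signal over background, so small differences there were not measurable.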

Other observations

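Fas, Tnfrsf10b and Eda2r, the 3 members with the lowest differences, are known as target genes of the transcription factor p53, Eda2r from work in human cells. A list of 24 other known p53 targets was therefore read from the same fit. The list was chosen after the receptor values were seen, so its counts are a description only. Of the 24 genes 3 rose (12.5%, against 8.58% of all genes), 6 fell (25.0%, against 10.9%) and 15 were not called, with a median of -0.09. Here too the shares of all genes are not matched for level. Without undifferentiated replicate 3, 4 rose (16.7%, against 24.8%) and 10 fell (41.7%, against 20.2%), with a median of -0.17. Mdm2, the ubiquitin ligase that degrades p53, read 11.28, 10.97 and 10.84 in undifferentiated and 8.91, 9.53 and 9.32 in differentiated cells, and fell 3.43-fold. Polk, a translesion polymerase gene, fell 2.92-fold, Ccng1, the cyclin G1 gene, fell 2.56-fold and Trp53inp1 fell 2.31-fold. Zmat3 fell 2.19-fold and Aen, an apoptosis-associated nuclease gene, 2.06-fold. Each of these 6 passed under all 18 alternatives. Cdkn1a, the p21 cell cycle inhibitor gene, differed by -0.22 (limma adjusted p = 0.296) and was called in 0 of 18 alternatives. Bax differed by -0.36 (limma adjusted p = 0.326) and Phlda3 by -0.17 (0.5001), with undifferentiated replicate 3 at -1.004 and -0.64 from the mean of replicates 1 and 2. Each was called in 2 of 18 alternatives, and over these settings Bax ranged from -0.69 to 0.31 and Phlda3 from -0.39 to 0.25. Gadd45a rose 1.88-fold (limma adjusted p = 0.000635) and also passed under all 18 alternatives. Plk2 rose 1.56-fold (limma adjusted p = 0.0172) and Sesn1 1.51-fold (0.0136), with the calls lost in 4 and 3 of 18 alternatives.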
